A study of Mus musculus with 10 samples.

Results

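Retinoic acid is the active form of vitamin A, and the genes described here make it, carry it and its precursor retinol, and break it down. Genes were chosen by symbol from a list of 9: Aldh1a1, Aldh1a2, Aldh1a3 and Rdh10 for synthesis, Rbp4 and Stra6 for delivery of retinol, Crabp1 and Crabp2 for binding inside the cell, and Cyp26b1 for breakdown. Values were used for 8 of these 9, of 18725 genes in the expression table, and all 8 passed the filter on low counts. The expression of Crabp1 was not analysed here.

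RNA was sequenced from 10 libraries of C57BL/6J mouse cochlea at postnatal day 10, 5 labelled euthyroid and 5 labelled hypothyroid. The tissue was outer sulcus, an epithelial strip at the lateral edge of the cochlear duct, and the part of the spiral ligament under it. For the hypothyroid group, dams drank methimazole (0.05%), sodium perchlorate monohydrate (1.0%) and sucrose (5.0%) from embryonic day 17 through lactation to postnatal day 10, and the euthyroid group came from dams on vehicle, whose composition the labels do not give. The extraction text of the same labels instead describes femoral head cartilage at postnatal day 22. Both antithyroid agents act on hormone synthesis in the thyroid (methimazole on the peroxidase, perchlorate on iodide uptake), and hormone levels of the mice were not analysed here. The labels do not say that the libraries came from separate animals or litters, so p-values measure the spread between these libraries, which may in part be technical.

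Retinol circulates bound to RBP4 and can enter cells through STRA6. Retinol dehydrogenases such as RDH10 oxidise it to retinaldehyde, retinaldehyde dehydrogenases of the ALDH1A family oxidise that to retinoic acid, and CYP26 enzymes hydroxylate and so inactivate retinoic acid. Retinoic acid binds RAR receptors, which pair with RXR receptors on DNA. In the developing inner ear, local supply and removal of retinoic acid is known to pattern the otocyst, and Aldh1a and Cyp26 genes mark distinct territories.

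Total estimated reads per library were 19781921 to 20063961 in the euthyroid and 19298145 to 19407592 in the hypothyroid group, so depth was nearly equal. The labelled tissue was checked on inner ear genes of fibrocytes, named after their values were seen. Otor had a mean of 5479 CPM in the euthyroid and 6060 CPM in the hypothyroid group, while Otos had 3906 and 56.1 CPM and Coch 2868 and 261 CPM. Cartilage and bone markers were present as well. The 6 chondrocyte markers summed to 32755 to 38079 CPM in the euthyroid and 13168.5 to 14185 CPM in the hypothyroid libraries. Most of that was Col2a1, with means of 32367 and 12485 CPM. The 6 osteoblast markers summed to 1205 to 1762 CPM against 295 to 852 CPM. Whether cartilage or bone was in the dissected tissue was not tested. Libraries of a group differed from each other by more than counting noise, with a mean chi-square per gene of 5.39 to 15.7 over the 20 within-group pairs. Y-linked genes had a mean log2 CPM of -0.90 in euthyroid replicate 5, and -1.27 and -1.64 in hypothyroid replicates 2 and 5. The other libraries had 5.18 to 6.15, so the groups may differ in their mix of sexes. Levels below are CPM, the estimated reads of a gene scaled to a common library size with edgeR's TMM factors, unless TPM, a level per transcript length, is named. Differences are log2 fold changes of hypothyroid against euthyroid from edgeR's quasi-likelihood test, with p-values adjusted by Benjamini-Hochberg over the 14862 genes tested and a threshold of 0.05. The groups differed widely: hypothyroid tissue had higher levels of 5603 genes and lower levels of 5064, so that 52.5% of the genes called were higher. The median log2 difference over all genes was 0.04 with TMM, 0.15 with upper quartile factors, 0.30 with library size alone and 0.23 on the log2(TPM + 1) scale. With library size alone 74.7% of the genes called were higher, and 71.5% on the log2(TPM + 1) scale. Small differences between the groups therefore depended on the scaling.

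Of the 8 genes, Cyp26b1 and Aldh1a2 were higher in the hypothyroid libraries, Aldh1a1, Rdh10 and Stra6 were lower, and Crabp2, Aldh1a3 and Rbp4 did not pass the test. The 5 of 8 that passed stand beside 71.8% of all genes tested, the 2 higher beside 37.7% and the 3 lower beside 34.1%. Aldh1a1, Rdh10 and Cyp26b1, 3 of 8, had no overlap in CPM between the groups, beside 57.9% of all genes tested. These shares are near or below the background and are no result about the list, whose median log2 difference was -0.0042. The values of the single genes follow in the order of their roles.

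**Figure D1:**
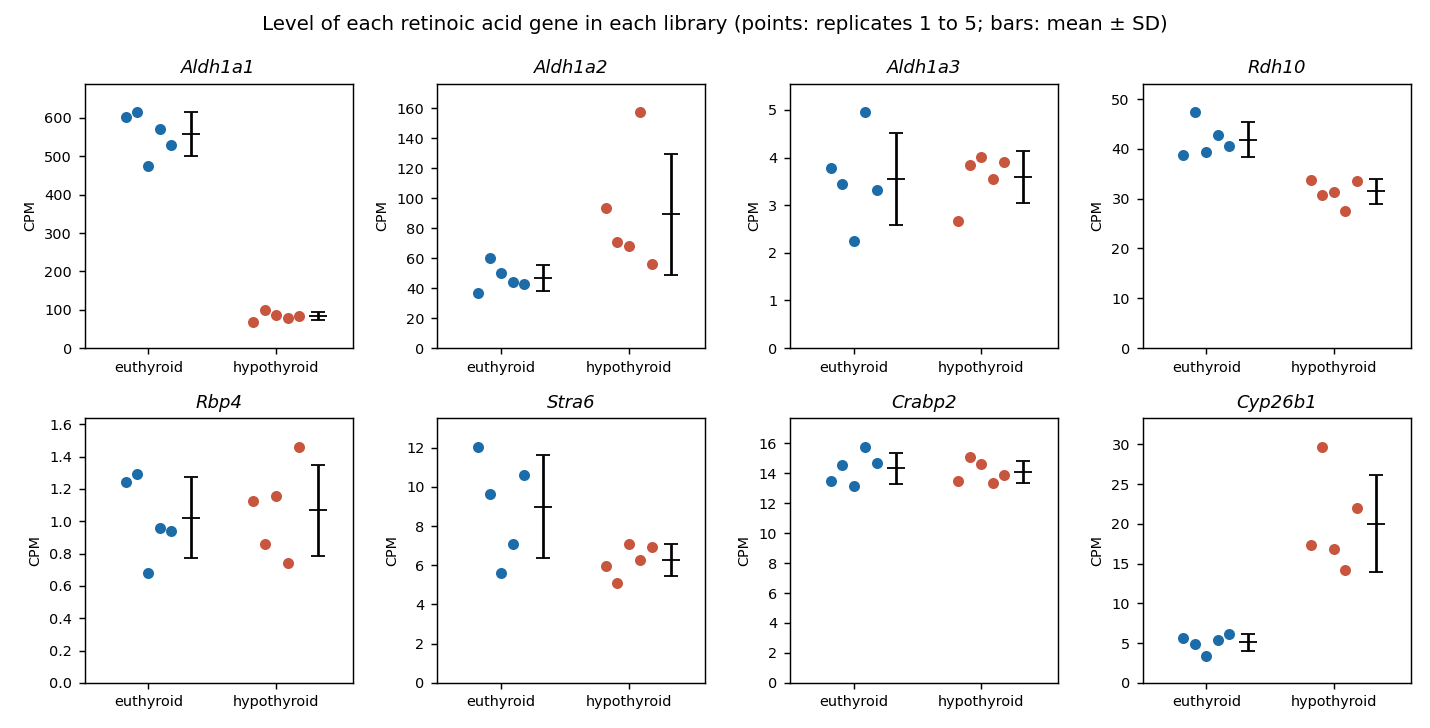
Level of each of the 8 genes in CPM (y axis, from 0) in the 5 euthyroid and 5 hypothyroid libraries; points are libraries in replicate order and bars are mean ± SD. The groups are fully separate for Aldh1a1 (474 to 616 against 67.8 to 98.8), Rdh10 and Cyp26b1, and overlap for the other 5.

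Promoter windows of the 3 genes with the largest differences are shown because they differ in make-up as well as in direction. Each runs from 250 bases before to 50 bases after a RefSeq transcription start on GRCm38.p6, 5′ to 3′ on the gene's strand, with every CG dinucleotide in capitals. The Aldh1a1 window is the one of its 2 starts nearer the gene's 3′ end, chr19:20601718-20602017 on the plus strand.
Aldh1a1: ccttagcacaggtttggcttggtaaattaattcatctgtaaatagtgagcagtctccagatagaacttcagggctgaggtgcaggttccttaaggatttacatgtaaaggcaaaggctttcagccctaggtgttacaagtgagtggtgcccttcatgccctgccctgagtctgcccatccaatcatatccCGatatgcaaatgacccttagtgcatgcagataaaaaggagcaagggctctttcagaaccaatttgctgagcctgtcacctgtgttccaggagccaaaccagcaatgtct
The Aldh1a2 window is chr9:71215539-71215838 on the plus strand.
Aldh1a2: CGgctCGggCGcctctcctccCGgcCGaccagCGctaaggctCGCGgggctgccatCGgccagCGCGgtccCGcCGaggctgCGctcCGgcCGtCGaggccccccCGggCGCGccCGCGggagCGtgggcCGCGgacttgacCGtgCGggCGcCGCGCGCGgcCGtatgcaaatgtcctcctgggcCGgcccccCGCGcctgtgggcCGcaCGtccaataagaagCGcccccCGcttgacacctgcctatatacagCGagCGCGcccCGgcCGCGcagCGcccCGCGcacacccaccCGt
The Cyp26b1 window is chr6:84593761-84594060 on the minus strand.
Cyp26b1: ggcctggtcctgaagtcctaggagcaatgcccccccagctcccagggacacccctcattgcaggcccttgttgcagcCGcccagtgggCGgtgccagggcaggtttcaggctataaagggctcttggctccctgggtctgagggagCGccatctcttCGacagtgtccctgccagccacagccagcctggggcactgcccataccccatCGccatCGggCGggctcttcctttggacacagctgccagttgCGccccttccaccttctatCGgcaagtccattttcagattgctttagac
The Aldh1a1 window holds 1 CG and has 47% G and C, and 85.9% of the 32851 RefSeq windows hold more. The window at the other Aldh1a1 start, chr19:20492333-20492632, holds 3, and 68.6% of all windows hold more. The Aldh1a2 window holds 50 CG with 78% G and C, and 99.1% of all windows hold fewer. Cyp26b1 has 9, near the median of 7 over all windows. Aldh1a1, with the largest fall of the 8 genes, has windows poorer in CG than most at both starts. Its paralog Aldh1a2, which rose, has a window richer in CG than nearly all others. Rbp4, which did not pass the test, has a window with 40 CG, where 96.1% of all windows hold fewer, and another with 5. These are descriptions of reference sequence. A link between CG content and direction was not tested, and methylation was not measured.

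Aldh1a1 encodes a cytosolic retinaldehyde dehydrogenase and spans chr19:20492583-20643463 on the plus strand. Its euthyroid libraries had 603, 616, 474, 571 and 529 CPM, a mean of 558 ± 58.0 (SD, n = 5). The hypothyroid libraries had 67.8, 98.8, 87.5, 78.9 and 84.3 CPM, a mean of 83.5 ± 11.4 (SD, n = 5). Even the lowest euthyroid library stood far above the highest hypothyroid one. The gene was 6.69-fold lower, with a log2 difference of -2.74 ± 0.10 (SE) and an adjusted p of 4.76e-11 by edgeR's quasi-likelihood test.

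Markers of root cells and outer sulcus, the epithelium named in the labels, were also lower in sum. Of 9 such genes 6 were lower, 2 higher and 1 did not pass, and their summed level was 8043 to 8788 CPM in the euthyroid and 3350 to 4059 CPM in the hypothyroid libraries. Epyc, a small proteoglycan, and Sparcl1, a matricellular protein, make up most of that sum, with means of 3978 against 1735 CPM and 3512 against 1408 CPM. Kcnj16, a potassium channel subunit of the same list named after its values were seen, had 353 CPM against 14.4 CPM. This fold difference was larger than that of Aldh1a1. Other genes of the list, also named after their values were seen, went the other way or barely changed. Aqp5 had 24.0 CPM against 87.5 CPM, Dpp10 8.27 CPM against 58.7 CPM, and Anxa1 261 CPM against 253 CPM. Aldh1a1 had 58.9 to 70.1 CPM per 1000 CPM of the 9 summed markers in the euthyroid libraries and 18.9 to 25.7 in the hypothyroid ones, without overlap. Of 9 fibrocyte markers of the spiral ligament 6 were lower, 2 higher and 1 did not pass, with a sum of 22116 to 26033 CPM against 10175 to 12851 CPM. Among all genes tested, 34.1% were lower and 37.7% higher. In bulk tissue, fewer cells of a type and less RNA per cell cannot be told apart, and the part of these marker shifts in the Aldh1a1 result was not tested.

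Aldh1a2 encodes the retinaldehyde dehydrogenase that makes most retinoic acid in the early embryo, and spans chr9:71215789-71296243 on the plus strand. Its euthyroid libraries had 36.5, 60.1, 50.3, 44.3 and 42.5 CPM, a mean of 46.7 ± 8.94 (SD, n = 5). The hypothyroid libraries had 93.8, 71.1, 68.2, 158 and 55.9 CPM, a mean of 89.3 ± 40.6 (SD, n = 5). Hypothyroid replicate 4 was the highest of all, and hypothyroid replicate 5 lay below euthyroid replicate 2, so the groups overlapped. The gene was 1.91-fold higher, with a log2 difference of 0.93 ± 0.30 (SE) and an adjusted p of 0.0187 by edgeR. Without hypothyroid replicate 4 the log2 difference was 0.63 with an adjusted p of 0.0101.

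Within each group, the libraries with the most and least Aldh1a2 also had the highest and lowest marker levels of the stria vascularis. The stria is the secretory epithelium beside the dissected tissue. Hypothyroid replicate 1, between these extremes, did not follow the markers. It had 93.8 CPM of Aldh1a2, above hypothyroid replicates 2 and 3, but lower sums of marginal cell and of melanocyte markers than either. Aldh1a2 was highest in euthyroid replicate 2 and hypothyroid replicate 4 and lowest in euthyroid replicate 1 and hypothyroid replicate 5. The same 4 libraries held the extremes of the 4 summed marginal cell markers and of the 6 summed melanocyte markers. Other lists shared some of these extremes: the sum of Reissner membrane markers was highest in euthyroid replicate 2 and hypothyroid replicate 4 and lowest in euthyroid replicate 1, and the sum of meninges and arachnoid markers was highest in hypothyroid replicate 4 and lowest in euthyroid replicate 1 and hypothyroid replicate 5. Within their groups, the sums of osteoblast and of supporting cell markers were highest in hypothyroid replicate 4 and lowest in euthyroid replicate 1. The sum of endothelium markers was highest in hypothyroid replicate 4 and lowest in hypothyroid replicate 5 of that group. These extremes were therefore not particular to the stria. None of these markers was at 0 in every library. Marginal cell markers summed to 175 to 267 CPM in the euthyroid and 195 to 505 CPM in the hypothyroid libraries, with 0 of 4 called in either direction, 3 not passing and 1 below the filter. Kcne1 had means of 90.8 and 117 CPM, Esrrb 68.5 and 112 CPM, and Kcnq1, named after its values were seen, 72.8 and 60.6 CPM. Melanocyte markers summed to 398 to 606 CPM against 864 to 1655 CPM, and 6 of 6 were higher, beside 37.7% of all genes tested. Per 1000 CPM of marginal cell markers Aldh1a2 had 177 to 225 CPM in the euthyroid and 247 to 433 CPM in the hypothyroid libraries, without overlap. Per 1000 CPM of melanocyte markers it had 83.6 to 101 CPM against 56.1 to 100 CPM, and the groups overlapped. The part of these cells in the Aldh1a2 result was not tested.

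**Figure D2:**
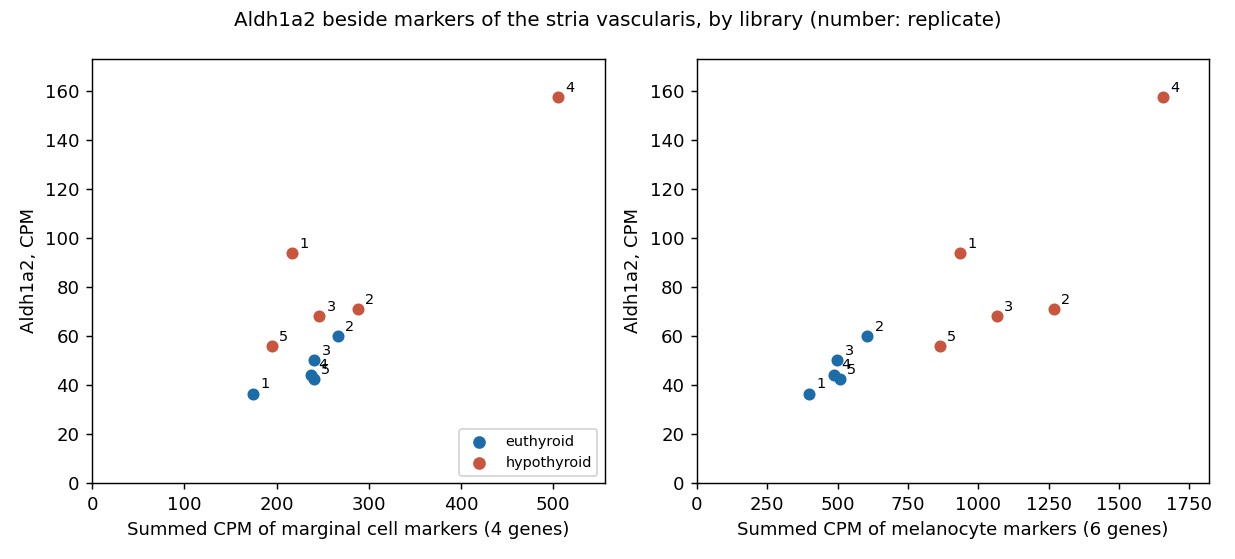
Aldh1a2 in CPM (y axis) against the summed CPM of 4 marginal cell markers (left) and 6 melanocyte markers (right), 1 point per library with its replicate number, blue for euthyroid and red for hypothyroid. Hypothyroid replicate 4, at 158 CPM of Aldh1a2, has the highest marker sums in both panels (505 and 1655 CPM).

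Aldh1a3, the third retinaldehyde dehydrogenase (chr7:66390892-66427477, minus strand), was scarce and did not pass the test. Its libraries lay between 2.26 and 4.96 CPM in the euthyroid group and between 2.67 and 4.002 CPM in the hypothyroid group. The log2 difference was 0.02 ± 0.18 (SE), with an adjusted p of 0.94 by edgeR, and its sign changed under some alternatives.

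Because TPM is a level per length, the 3 enzymes could be added and their shares compared within a library. Their sum was 607 ± 74.1 TPM (SD, n = 5) in the euthyroid and 208 ± 44.1 TPM in the hypothyroid libraries, 2.91-fold lower and without overlap. Aldh1a1 made up 93.8%, 90.7%, 89.9%, 92.1% and 92.0% of that sum in euthyroid replicates 1 to 5. In hypothyroid replicates 1 to 5 it made up 41.7%, 57.0%, 55.5%, 32.7% and 59.1%. The euthyroid tissue thus held mostly Aldh1a1 transcript of this family, and the hypothyroid tissue held Aldh1a1 and Aldh1a2 in like amounts. The Aldh1a2 share was 7.90% ± 1.55 (SD, n = 5) against 49.4% ± 11.8, and the Aldh1a3 share 0.392% against 1.40%, each without overlap between the groups. In hypothyroid replicates 1 and 4 Aldh1a2 was above Aldh1a1. These ratios carry no test, since the genes were chosen with earlier results known.

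**Figure D3:**
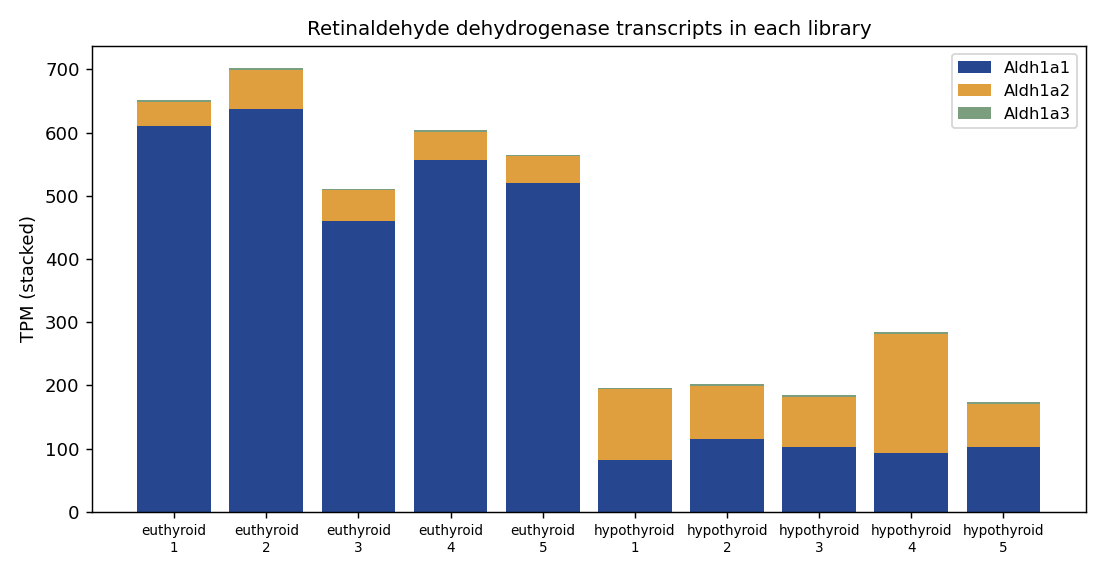
Stacked TPM of Aldh1a1, Aldh1a2 and Aldh1a3 in each of the 10 libraries (y axis from 0, 1 bar per library). Bars of the euthyroid libraries reach 511 to 702 TPM and are nearly all Aldh1a1, and those of the hypothyroid libraries reach 174 to 285 TPM with large Aldh1a2 parts.

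Rdh10 encodes the retinol dehydrogenase that makes retinaldehyde in the embryo (chr1:16105882-16132550, plus strand). Its euthyroid libraries had 38.8, 47.4, 39.3, 42.8 and 40.6 CPM. Under antithyroid treatment the levels were 33.8, 30.8, 31.4, 27.6 and 33.6 CPM. In CPM, all hypothyroid libraries lay below all euthyroid ones. In TPM the groups overlapped, with 38.67 to 48.98 in the euthyroid and 32.55 to 40.36 in the hypothyroid libraries. The gene was 1.33-fold lower, with a log2 difference of -0.41 ± 0.07 (SE) and an adjusted p of 7.87e-05 by edgeR. This call depended on the scaling: with library size alone the log2 difference was -0.15 with an adjusted p of 0.0782, and on the log2(FPKM + 1) scale with limma it was -0.14 with an adjusted p of 0.0762.

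Stra6 encodes the membrane receptor that takes up retinol from RBP4 (chr9:58063793-58154004, plus strand). It had 12.05, 9.64, 5.59, 7.10 and 10.6 CPM in the euthyroid libraries. The hypothyroid libraries had 5.94, 5.09, 7.09, 6.28 and 6.93 CPM. Euthyroid replicates 1, 2 and 5 stood above all hypothyroid libraries, euthyroid replicate 4 was level with the highest of them, and euthyroid replicate 3 lay among them. Stra6 was 1.44-fold lower, with a log2 difference of -0.52 ± 0.18 (SE) and an adjusted p of 0.0181 by edgeR. The call was lost without euthyroid replicate 1 (log2 difference -0.40, adjusted p = 0.0504 by edgeR) and under 6 of the other alternatives, among them library size alone (-0.26, adjusted p = 0.213).

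Rbp4 encodes the plasma carrier of retinol, which is made mainly in the liver (chr19:38116620-38125321, minus strand). It was close to the detection limit, with 93 estimated reads summed over the euthyroid group and 113 summed over the hypothyroid group. Its libraries lay between 0.677 and 1.29 CPM in the euthyroid and between 0.739 and 1.46 CPM in the hypothyroid group, and it did not pass edgeR's test (log2 difference 0.06 ± 0.24 SE, adjusted p = 0.842). At this depth a small difference in Rbp4 was not detectable.

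Crabp2 encodes a small protein that binds retinoic acid in the cytoplasm and delivers it to RAR receptors (chr3:87948693-87953372, plus strand). Its euthyroid libraries had 13.5, 14.5, 13.1, 15.8 and 14.7 CPM. The hypothyroid libraries had 13.5, 15.1, 14.6, 13.3 and 13.9 CPM. The groups covered the same range, and edgeR gave a log2 difference of -0.02 ± 0.07 (SE) with an adjusted p of 0.775. Crabp2 turned higher and passed with library size alone (0.24, adjusted p = 0.00804 by edgeR) and on the log2(TPM + 1) scale (0.20, adjusted p = 0.00544 by limma), values close to the shift of the median gene on those scales. Its direction was therefore not settled by these data.

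Cyp26b1 encodes the member of the CYP26 family that clears retinoic acid in many developing tissues (chr6:84571414-84593908, minus strand). Its euthyroid libraries had 5.67, 4.90, 3.44, 5.35 and 6.10 CPM, a mean of 5.09 ± 1.02 (SD, n = 5). The hypothyroid libraries had 17.4, 29.7, 16.9, 14.2 and 22.0 CPM, a mean of 20.04 ± 6.09 (SD, n = 5). The lowest hypothyroid library had more than any euthyroid library. Cyp26b1 was 3.93-fold higher, with a log2 difference of 1.97 ± 0.21 (SE) and an adjusted p of 4.38e-06 by edgeR. Over 22 alternative settings the log2 difference ran from 1.46 to 2.24, and each kept the call. The other enzymes of the family were barely detected: Cyp26a1 had 6 estimated reads in the whole euthyroid group and 8 in the hypothyroid group, and Cyp26c1 had 1 and 3. Cyp26b1 thus gave nearly all CYP26 reads in both groups.

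Set against each other within a library, summed Aldh1a transcripts were lower and Cyp26b1 transcripts higher in the hypothyroid group. The ratio of summed Aldh1a TPM to Cyp26b1 TPM was 245, 309, 334, 250 and 200 in euthyroid replicates 1 to 5. It was 21.5, 12.8, 20.8, 36.7 and 14.7 in hypothyroid replicates 1 to 5. The means, 268 ± 53.6 and 21.3 ± 9.39 (SD, n = 5), differed 12.6-fold and the groups did not overlap. The ratio of Aldh1a2 alone to Cyp26b1 was 21.6 ± 8.20 against 11.3 ± 7.80 and did overlap. These ratios carry no test either. A ratio of transcripts is no measure of retinoic acid itself, which was not measured.

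**Figure D4:**
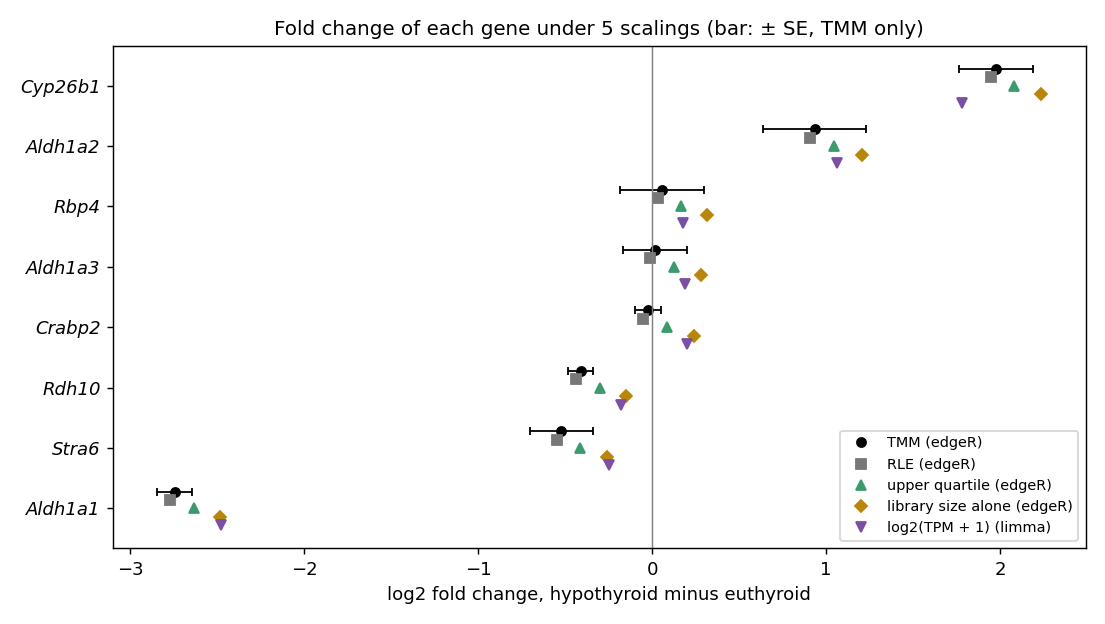
Log2 fold change (x axis, hypothyroid minus euthyroid) of the 8 genes under 5 ways of scaling the libraries; the bar is ± SE for TMM. Aldh1a1, Aldh1a2 and Cyp26b1 keep their side of 0 under each, Rdh10 and Stra6 move toward 0 with library size alone and TPM, and Crabp2 and Aldh1a3 lie on either side of 0.

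Per length, the order of the 8 genes changed between the groups. In the euthyroid libraries it was Aldh1a1 (557 ± 71.0 TPM, SD, n = 5), Aldh1a2 (47.6 ± 9.68), Rdh10 (42.0 ± 4.14), Crabp2 (37.9 ± 2.80), Stra6 (7.34 ± 2.25), Rbp4 (2.57 ± 0.628), Aldh1a3 (2.39 ± 0.650) and Cyp26b1 (2.34, from 1.53 to 2.82). The ranges of neighbours overlapped for Aldh1a2 and Rdh10, for Rdh10 and Crabp2, and among the last 3 genes. In the hypothyroid libraries the order was Aldh1a2 (106 ± 48.9 TPM, SD, n = 5), Aldh1a1 (99.0 ± 12.3), Crabp2 (43.6 ± 1.82), Rdh10 (36.9 ± 3.25), Cyp26b1 (10.7 ± 3.23), Stra6 (5.84 ± 0.764), Rbp4 (3.07 ± 0.920) and Aldh1a3 (2.82 ± 0.418). Here the ranges of the first pair and of the last pair overlapped, and the others did not. By mean TPM, Cyp26b1 thus moved from the last place to the fifth, though Aldh1a3 was above it in only 2 of the 5 euthyroid libraries.

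Genes with the most similar profile over the 10 libraries were found among 11940 genes by the root mean square difference of centred log2 CPM, where 0 is an identical profile. For Aldh1a1 they were Bcam (0.133) and Gask1b (0.163), for Cyp26b1 Frmd3 (0.207) and Creb5 (0.221), and for Aldh1a2 Rspo3 (0.181) and Bsnd (0.198). Bcam, a laminin-binding cell surface protein, had a mean of 775 CPM in the euthyroid and 108 CPM in the hypothyroid libraries, and Bsnd, the barttin subunit of chloride channels in stria marginal cells, had 9.17 and 15.6 CPM. Rdh10 was closest to Clint1 (0.0669) and Abi1 (0.0731), and Stra6 to Ackr4 (0.214) and Ier5 (0.215).

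The other genes of the pathway were taken from a list of 55, of which 54 had values and 36 were tested. Of these, 13 were higher, 9 lower and 14 did not pass, 17 did not overlap between the groups, and the median log2 difference was 0.14. Those shares, too, are near the background of all genes given above. With library size alone the counts were 24 higher and 4 lower. Genes named in the following sentences without further values, and Lrat, were added after their values were seen.

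Of the 6 receptors, Rara, Rarb, Rarg and Rxra were higher, Rxrb was lower and Rxrg did not pass. The 4 higher stand beside 37.7% of all genes tested and the 1 lower beside 34.1%. These counts are no result about the receptors as a set. Rarb, whose gene is a textbook direct target of retinoic acid, had 24.4, 27.1, 19.1, 20.3 and 23.0 CPM in the euthyroid libraries and 59.7, 48.7, 50.8, 55.5 and 54.8 CPM in the hypothyroid ones. All 5 hypothyroid libraries stood well above the euthyroid ones. It was 2.37-fold higher (log2 difference 1.24 ± 0.09 SE, adjusted p = 7.69e-09 by edgeR). Rara (0.62, adjusted p = 2.46e-06) and Rxra (0.57, adjusted p = 1.21e-05) rose less by edgeR's test. Neither overlapped between the groups in CPM. Rarg was 0.19 higher (adjusted p = 0.022 by edgeR), and that call was lost without euthyroid replicate 4 (0.13, adjusted p = 0.076) or without hypothyroid replicate 4 (0.15, adjusted p = 0.0591). Rxrb was -0.17 (adjusted p = 0.00713 by edgeR) and turned to 0.09 with library size alone and 0.07 on the log2(TPM + 1) scale, so its direction was not settled. Rxrg had a log2 difference of 0.15 (adjusted p = 0.241 by edgeR) and passed with library size alone (0.41, adjusted p = 0.00277).

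The Rarb promoter is printed because it is the one among the receptors, and 1 of 2 in the pathway, that holds a direct repeat with a spacer of 5 bases, the textbook binding element of RAR and RXR. The window is chr14:16575427-16575726 on the minus strand of GRCm38.p6 from RefSeq, 5′ to 3′ on the gene's strand, with the repeat in capitals.
Rarb: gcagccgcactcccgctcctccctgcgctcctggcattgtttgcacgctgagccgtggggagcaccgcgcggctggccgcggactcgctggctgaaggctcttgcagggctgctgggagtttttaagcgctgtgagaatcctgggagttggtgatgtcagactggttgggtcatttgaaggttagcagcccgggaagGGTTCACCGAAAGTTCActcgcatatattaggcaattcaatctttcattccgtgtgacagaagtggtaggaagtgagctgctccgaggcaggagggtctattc
The repeat, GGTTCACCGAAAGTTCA, starts 53 bases before the transcription start of this window. That start lies inside the span of the gene, chr14:16430839-17082331. Which start the Rarb reads came from, and a link of the repeat to the higher level, were not tested. Each hexamer searched for was AGGTCA or AGTTCA or GGTTCA or GGGTCA, in any pair, on both strands, with spacers of 1, 2, 4 or 5 bases, and also AGGTCA alone, which can overlap the repeats. Spacer 5 was found in 0.0974% of the 32851 windows (32 windows), spacer 4, the textbook thyroid hormone receptor element, in 0.0822%, spacer 2 in 0.268%, spacer 1 in 0.222% and AGGTCA alone in 16.3%. The other pathway window with spacer 5 was that of Cyp26a1, which reads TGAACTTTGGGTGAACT on its plus strand at chr19:37697558-37697857, a repeat of the minus strand. The 11 windows found for 6 of the 9 genes (Aldh1a1, Aldh1a2, Crabp1, Cyp26b1, Rbp4 and Stra6) held none of these motifs, which says only that the letters are not in those windows. Rdh10, Aldh1a3 and Crabp2 were not searched.

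In transport and storage, 6 of 10 genes were tested, with 1 higher (Ttr), 2 lower (Rlbp1 and Rbp7) and 3 not passing (Dgat1, Fabp5 and Lrp2). Ttr encodes transthyretin, the plasma protein that carries RBP4 with its retinol as well as thyroxine. Its euthyroid libraries had 0.270, 0.485, 0.790, 1.46 and 0.111 CPM, and hypothyroid replicates 1 to 5 had 4.63, 10.4, 1.69, 8.35 and 3.11 CPM. Levels were low and uneven in both groups, which did not overlap. Ttr was 9.01-fold higher (log2 difference 3.17 ± 0.66 SE, adjusted p = 0.00167 by edgeR). Rbp7, which binds retinol inside cells, was lower by edgeR (-2.44 ± 0.33 SE, adjusted p = 1.06e-05) at low levels of 1.51 to 3.78 against 0.236 to 0.748 CPM, and Rlbp1, a retinaldehyde binder best known from the eye, was lower as well (-0.75 ± 0.09 SE, adjusted p = 1.94e-06). Lrat, which esterifies retinol for storage, was below the filter, with 59.7 estimated reads in the euthyroid group and 16.0 in the hypothyroid group.

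In retinol and retinal conversion, 13 of 22 genes were tested, with 3 higher (Adh1, Dhrs3 and Adh5), 2 lower (Dhrs7 and Rdh12) and 8 not passing. Adh1, a cytosolic alcohol dehydrogenase that oxidises retinol, had 3.67 to 5.17 CPM in the euthyroid and 13.4 to 26.4 CPM in the hypothyroid libraries. It was 4.23-fold higher (log2 difference 2.08 ± 0.18 SE, adjusted p = 2.09e-07 by edgeR). Dhrs3, which turns retinaldehyde back into retinol, was 1.32-fold higher (0.40 ± 0.09 SE, adjusted p = 0.000688 by edgeR). Dhrs7, a dehydrogenase of the same superfamily, had 51.6 to 58.9 CPM against 25.9 to 27.1 CPM and was lower (-1.06 ± 0.05 SE, adjusted p = 6.91e-11 by edgeR).

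**Figure D5:**
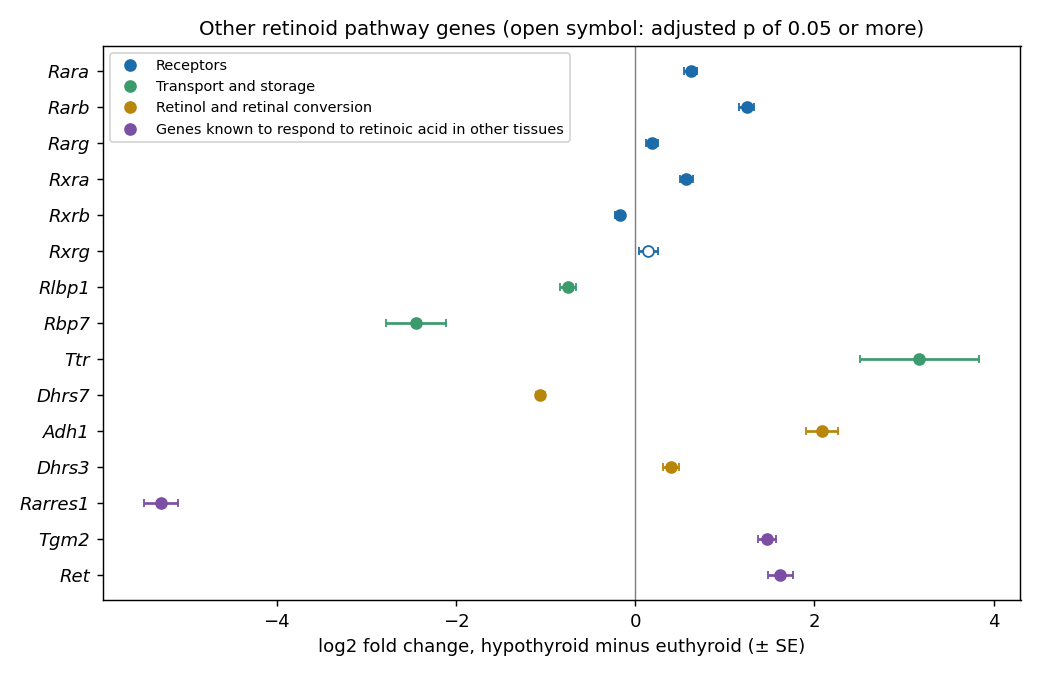
Log2 fold change ± SE (x axis, hypothyroid minus euthyroid, edgeR with TMM) of 15 other retinoid genes, coloured by role; an open symbol marks an adjusted p of 0.05 or more. Rarres1 stands farthest to the left at -5.29 and Ttr farthest to the right at 3.17, and Rxrb at -0.17 changes sign with library size alone and on the TPM and FPKM scales.

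With TMM scaling, genes known to respond to retinoic acid in other tissues were called in both directions. Of 15 named, 14 had values and 11 were tested: 5 were higher (Tgm2, Ret, Meis1, Meis2 and Nr2f1), 4 lower (Rarres1, Nrip1, Tbx1 and Foxc1) and 2 did not pass (Rarres2 and Nr2f2). Stra8 was not analysed here. Of the 4 lower genes, Rarres1 was also separate between the groups in TPM, while the TPM ranges of the others overlapped. Euthyroid against hypothyroid, they were 14.8 to 17.7 against 13.5 to 17.1 for Nrip1 and 103 to 127 against 90.8 to 105 for Tbx1. For Foxc1 they were 185 to 220 against 176 to 204. Rarres1, first described as a retinoid-induced gene of skin cells, had 368, 361, 423, 615 and 405 CPM in the euthyroid libraries and 9.21, 12.03, 11.96, 9.65 and 12.6 CPM in the hypothyroid ones. That is a drop of 39.1-fold without overlap (log2 difference -5.29 ± 0.19 SE, adjusted p = 1.9e-09 by edgeR). Tgm2, a protein-crosslinking transglutaminase, was 2.77-fold higher (1.47 ± 0.10 SE, adjusted p = 1.23e-08 by edgeR), and Ret, the receptor of GDNF family ligands, was 3.07-fold higher (1.62 ± 0.14 SE, adjusted p = 4.93e-08 by edgeR) at a mean of 1.82 against 5.603 CPM. Meis2 also stands in the list of Reissner membrane markers, 4 of 4 of which were higher, with a sum of 70.5 to 100 CPM against 148 to 236 CPM. Among all genes tested, 37.7% were higher. The part of that membrane in these results was not tested.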

How the data were processed

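Estimated counts, TPM and FPKM per gene were deposited by the authors in 1 table, with units per the file headers. HISAT2 2.0.4, Bowtie2 2.2.5, RSEM 1.2.12 and the build GRCm38.p6 are named per the submitters' processing notes, without roles or order. Reads were single-end 50 bases per the labels' protocols, and whether strand was kept is not given in the sources used here. Another 18 columns, which hold normalized read counts and group averages, were not used.

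Estimated counts were rounded, filtered with filterByExpr (minimum count 10) and tested with edgeR 4.0.16 (TMM, robust quasi-likelihood, group as the single term) in R 4.3.3. Alternatives used DESeq2 1.42.0 and limma 3.58.1 (on log2 of TPM or FPKM plus 1 or 0.1), other scalings and filters, and each library left out. The procedure was tested on simulated data in which few genes changed, by known folds in both directions. That setting could not show how the scaling behaves when most genes differ, as here. Retinoid genes and lists were chosen with earlier results of these data known. The text names all 9 genes, the 6 receptors, for each other role the 3 genes with the smallest adjusted p, the 2 most similar profiles per called gene with at least 5 CPM, and at most 2 abundant genes per marker list; others are named as added. Gene positions and promoters are from RefSeq on GRCm38.p6, and gene strands and exon overlaps from the GENCODE vM21 annotation of the same build. None of the 8 genes shares an exon with another annotated gene. Same-numbered libraries of the groups were not paired. Some genes of the pathway lists are not reported here.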

Additional observations from a re-analysis of the deposited data

Results flagged for a closer look

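In 4 of 66 groups of 5 libraries examined, 1 library stood apart from the other 4 by most of the group's range. Chance gives such a case in about 1 in 20 groups. Rxrb had 52.5 CPM in euthyroid replicate 1, below the others of its group. Dhrs3 had 32.8 CPM in euthyroid replicate 5, the lowest of its group. Rarres1 had 615 CPM in euthyroid replicate 4, above the others. The summed Aldh1a level was 285 TPM in hypothyroid replicate 4, the library that also had the most Aldh1a2.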

How the results depend on the processing

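Over 22 alternatives Aldh1a1 (-2.81 to -2.42) and Cyp26b1 (1.46 to 2.24) kept direction and call, as did Rarb, Rara and Rxra. Leaving out each library in turn gave log2 differences of 0.63 to 1.07 for Aldh1a2, -0.45 to -0.37 for Rdh10, -0.66 to -0.40 for Stra6, -0.065 to 0.0038 for Crabp2, -0.12 to 0.16 for Aldh1a3 and -0.081 to 0.17 for Rbp4. Rdh10 lost its call with library size alone (-0.15) and on the FPKM scales (-0.14 and -0.15). Stra6 lost it with library size alone (-0.26), upper quartile factors (-0.41), TPM (-0.25 and -0.28) and FPKM (-0.19 and -0.24). Crabp2 turned higher with library size alone (0.24), upper quartile factors (0.085), the stricter filter (0.0032), TPM (0.20 with either pseudocount) and FPKM (0.23 and 0.24). Aldh1a3 turned lower with RLE factors (-0.0099), DESeq2 (-0.0098) and a Y-linked covariate (-0.0090), and Rxrb higher with library size alone (0.095), TPM (0.073 and 0.074) and FPKM (0.11 with either). Genes called higher numbered 8650 with library size alone and 8538 and 8541 on the FPKM scales; genes called lower numbered 2928, 2956 and 2966 there and 3219 and 3226 on the TPM scales. Of the 8 genes, 1 was lower with library size alone and on both FPKM scales. Other pathway genes called higher numbered 24 (library size alone, TPM) and 25 (FPKM), and lower 4 (library size alone) and 5 (TPM, FPKM). The causes were not tested. Aldh1a3 and Rbp4 fell below the stricter filter.

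Same-numbered libraries did not deviate together (correlations -0.0774 to 0.108, with 3 of 10 libraries closest to their own number). With the replicate number as a block, Aldh1a2 had a log2 difference of 0.85 and an adjusted p of 0.0577 by edgeR, which left 1 of the 8 genes higher. The comparison of protein sequences and the ratio of Crabp1 to Crabp2 were not run. Depth limits what can be said of Rbp4, Cyp26a1, Cyp26c1 and Lrat.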
